A study of Apis mellifera with 24 samples.

Results

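In the honey bee, Apis mellifera, 81 of 15313 annotated genes had their largest share of antisense small RNA counts in the ovaries of laying queens. They were chosen from the antisense counts themselves. The count of each gene was divided by the sum of its tissue's column, and a gene was kept when its share was highest in Ovaries and its Ovaries count was at least 20. Of 623 genes with the highest share in Ovaries, 96 reached that count. Of these 96, 15 belong to the 30 genes that the rule sets aside, which left 81, and the rule's upper limit of 150 genes was not reached. The antisense values of these genes by tissue are therefore a description and were not tested.

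The small RNA libraries came from 3 samples of ovaries and 3 of spermatheca, both from adult laying queens, 8 of eggs, 8 of testes and 2 of semen from adult drones. The eggs were less than 24 h old and came from mated queens (fertilised or unfertilised) and from virgin queens (worker or drone cells). The testes were taken 24 h (3 libraries), 72 h (2 libraries) or 144 h (3 libraries) after pupation. A mated queen keeps the sperm of drones in her spermatheca, so that this sample mixes queen cells with sperm. The counts are of reads of 26 to 31 bases that did not match other known RNAs, that is, of putative piRNAs. Each table holds 1 pooled column per tissue, so that no value below has a replicate, an SD or a p-value, and intervals cover counting error only. Antisense counts over all genes summed to 3268356 in Ovaries, 5045727 in Eggs, 392409 in Testes, 32551 in Semen and 553655 in Spermatheca. Tissue and sequencing run cannot be told apart, since the ovary libraries came from 1 flow cell that held 2 of the spermatheca libraries but no egg, testis or semen library.

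piRNAs are small RNAs bound by Piwi proteins in animal germ lines, where they guide the silencing of transposable elements (TEs). Many arise from genomic clusters, long stretches that hold fragments of old elements. A read antisense to a gene lies on the strand opposite to its transcript, so it could pair with that transcript, whereas a sense read could be a piece of the transcript itself. In the fruit fly, antisense and sense piRNAs of the same element amplify each other, and ovarian piRNAs are passed to the egg.

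The 81 genes held 151813 antisense counts, or 4.64% of those in Ovaries (95% Wilson interval 4.62 to 4.67). Their share was 3.59% in Eggs, 2.75% in Testes, 0.151% in Semen and 2.92% in Spermatheca. The Semen share rested on 49 counts (0.114 to 0.199%). A few genes decided these sums. The 3 genes with most counts held 77.3% of the Ovaries counts of the group, and without them the shares were 1.05% in Ovaries, 0.490% in Eggs, 0.133% in Testes, 0.0430% in Semen and 0.509% in Spermatheca. The counts of single genes in Ovaries ran from 22 to 79752, with a median of 117. At least 1000 counts were found in 13 genes and at least 100 in 43.

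**Figure D1:**
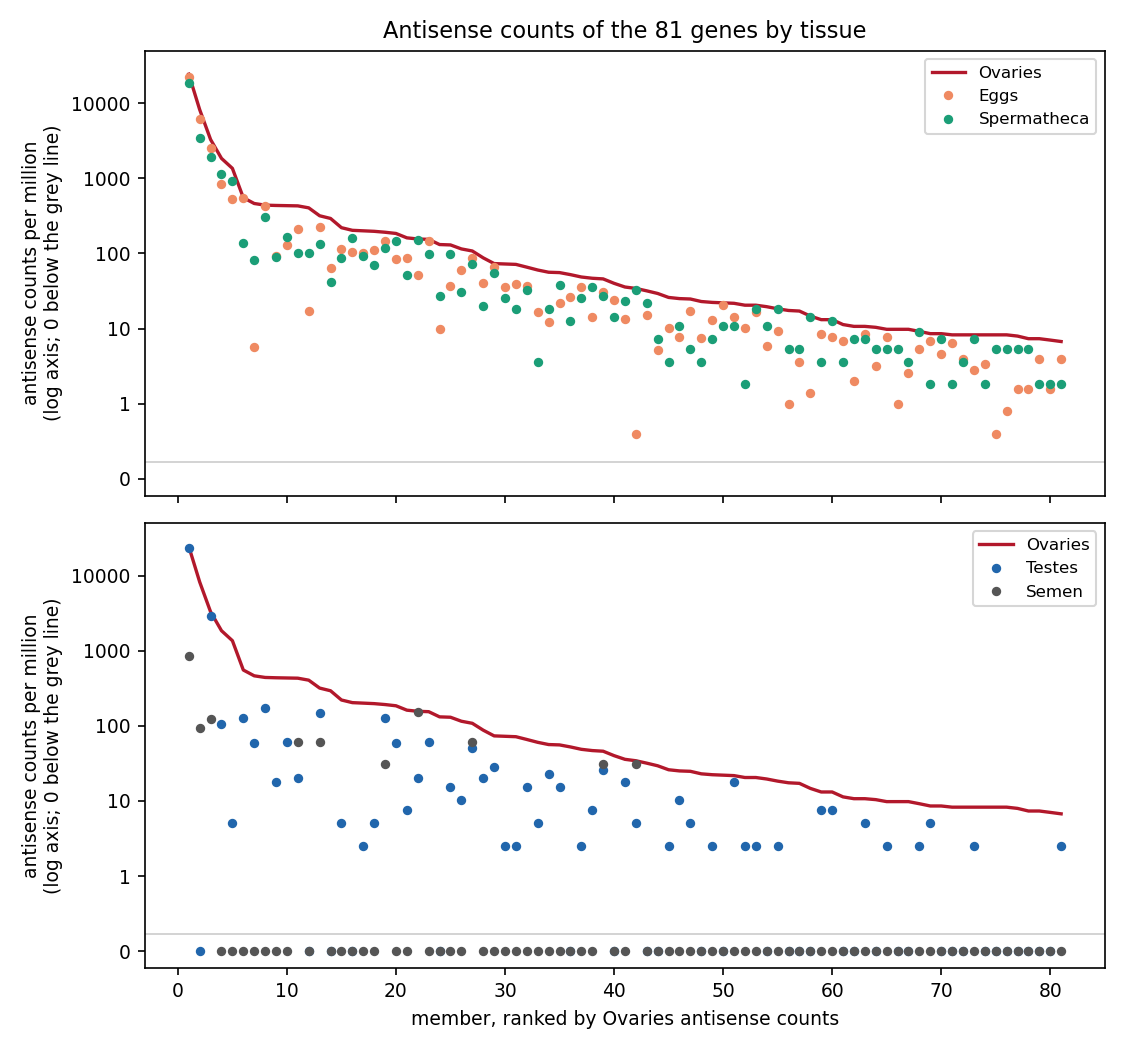
Antisense counts scaled to a sum of 1000000 antisense gene counts in each tissue (log axis, with 0 drawn below the grey line) for the 81 genes, ranked by their Ovaries count. The upper panel sets Ovaries (line) beside Eggs and Spermatheca (points), and the lower panel beside Testes and Semen, where 30 and 71 genes were at 0.

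The markers of the tissues were read in the sense counts, which measure short fragments and not mRNA. The germ line genes vas and aub, which encode a germ cell helicase and a Piwi protein, had 50 and 69 sense counts in Ovaries, 52 and 87 in Eggs, and 51 and 59 in Spermatheca. In Testes vas had 2 and aub 23, and in Semen both were at 0. The columns differ in depth, so marker counts were also scaled to a sum of 1000000 sense gene counts in each tissue. Scaled, vas was at 15.3 in Ovaries, 9.52 in Eggs, 3.56 in Testes and 59.1 in Spermatheca. Scaled values of aub were 21.2 in Ovaries, 15.9 in Eggs, 41.0 in Testes and 68.3 in Spermatheca. The germ line gene nanos encodes a translational repressor. It had 7 sense counts in Ovaries, 3 in Eggs, 23 in Testes, 1 in Semen and 4 in Spermatheca. Scaled in the same way, nanos was at 2.15, 0.549, 41.0, 8.53 and 4.63 in that order of tissues. Under this scaling aub and nanos were higher in Testes than in Ovaries, and vas was lower. Vitellogenin (Vg), the yolk protein precursor made mainly in the fat body, had 532 sense counts in Ovaries, 1 in Eggs and 3518 in Spermatheca. Counts of the troponin genes were 4 or fewer in every tissue. The part of fat body or other cells in the values below was not tested.

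The gene with most counts was GB55026, on the unplaced scaffold GroupUn169 (Amel 4.5, bases 26082 to 57519, plus strand). It had 79752 antisense counts in Ovaries, 112271 in Eggs, 9144 in Testes, 28 in Semen and 10334 in Spermatheca. As shares of all antisense gene counts these were 2.44%, 2.23%, 2.33%, 0.0860% and 1.87%, so that the first 3 tissues were close and only Semen stood far below. Its share in Ovaries was 1.05 times that in Testes, the next tissue. GB42002, an annotation of 114 bases on GroupUn2197, had a like order, with 10750 counts in Ovaries, 12736 in Eggs, 1140 in Testes, 4 in Semen and 1082 in Spermatheca. GB48734, of 165 bases on GroupUn30 (bases 13611 to 13775, minus strand), differed in Testes. It had 26853 counts in Ovaries, 31428 in Eggs and 1925 in Spermatheca, but 3 in Semen and 0 in Testes. A count of 0 in Testes allows a share of up to 0.000765%, against 0.822% in Ovaries. All 26853 Ovaries counts of GB48734 were antisense.

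Some genes further down were also low in Testes. GB48097 (LOC412818), on chromosome 7 between bases 12239992 and 12326232, had 6030 antisense counts in Ovaries, 4228 in Eggs, 41 in Testes, 0 in Semen and 633 in Spermatheca. Its share in Ovaries was 2.20 times that in Eggs and 17.7 times that in Testes, but 1.61 times that in Spermatheca, the next tissue. GB51029 (LOC551579), on chromosome 10, had 4441 counts in Ovaries, 2701 in Eggs, 516 in Spermatheca and 2 in Testes. Its share in Ovaries was 1.46 times that in Spermatheca, the next tissue. GB50540 (LOC724847), a gene of 129281 bases on chromosome 15, had 1416 in Ovaries, 664 in Eggs, 24 in Testes, 0 in Semen and 91 in Spermatheca. GB54000, of 210074 bases on chromosome 9, had 1407, 1080, 8, 2 and 57 in the same order of tissues. In GB48097, GB51029 and GB50540 Testes and Semen were the low tissues. In GB54000 Testes was low, but the Semen share (0.00614%, against 0.0103% in Spermatheca) rested on 2 counts, too few to call it low. GB45988 (LOC410655), on chromosome 16, was flatter, with 1039 counts in Ovaries, 1124 in Eggs, 58 in Testes, 2 in Semen and 74 in Spermatheca.

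The share in Ovaries exceeded that of the next tissue by a median of 1.52 times. The ratio was at least 1.5 in 43 genes, at least 2 in 22 and at least 3 in 11. The next tissue was Eggs for 41 genes, Spermatheca for 35, Testes for 4 and Semen for 1. Just inside the rule lay GB54406, with a ratio of 1.01 (1808 counts in Ovaries and 2757 in Eggs), and GB54012, with 1.02. Just outside lay GB45564, with 0.989 (2537 and 3962 counts). At the count limit, GB44717, GB51936 and GB47257 were inside with 24, 23 and 22 Ovaries counts, and GB49273 and GB45602 were outside with 19 each. The edge of the group is thus a cut through a run of close values.

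Which genes rank as highest in Ovaries depended on the scaling, because a few genes fill each column. GB54876 alone held 31.9% of the Ovaries and 40.2% of the Eggs antisense counts, while GB43331 held 54.0% of those in Semen, 38.4% in Spermatheca and 33.2% in Testes. With TMM factors over the 5 columns 75 of the 81 genes stayed highest in Ovaries and 6 were highest in Eggs. With DESeq2 size factors 62 stayed and 19 were highest in Eggs. Without any scaling 20 genes had more counts in Eggs than in Ovaries, and none had more in Spermatheca. When the 5 genes with at least 10% of a column were left out of the sums, 65 stayed highest in Ovaries, 15 were highest in Spermatheca and 1 in Semen.

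The ratio of the Ovaries share to the Eggs share ranged from 1.01 to 80.5 over the 79 genes with at least 3 Eggs counts, and the ratio to Spermatheca from 1.02 to 7.05 over the 67 genes with at least 3 counts there. GB53284 (LOC412667), on GroupUn113 (bases 43316 to 80784, minus strand), had the largest ratio to the next tissue. It had 1513 antisense counts in Ovaries, 29 in Eggs, 23 in Testes, 0 in Semen and 46 in Spermatheca. Its share in Ovaries was 80.5 times that in Eggs and 5.57 times that in Spermatheca. The sense counts of the same gene were 463 in Ovaries and 396 in Eggs, so that the antisense strand was far lower in Eggs than the sense strand. Of its counts 76.6% were antisense in Ovaries (74.7 to 78.4%) and 6.82% in Eggs.

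Other genes with few Eggs counts were GB42260 (LOC410479) and GB46813 (LOC409530). GB42260, on chromosome 14 (bases 2765295 to 2806052, plus strand), had 1324 antisense counts in Ovaries, 87 in Eggs, 56 in Spermatheca and 0 in both Testes and Semen, a share 23.5 times that in Eggs. GB46813, on GroupUn64, had 430 in Ovaries, 50 in Eggs, 15 in Spermatheca and 0 in Testes and Semen, a share 13.3 times that in Eggs. GB54771, on chromosome 13, had 112 in Ovaries but 2 in Eggs, against 18 in Spermatheca. GB42511 (LOC724287) and GB44258 (LOC411234) were low in Eggs and Spermatheca alike. GB42511 had 1425 counts in Ovaries, 468 in Eggs and 49 in Spermatheca, with share ratios of 4.70 and 4.93. GB44258 had 957, 320 and 23, with ratios of 4.62 and 7.05. The symbol LOC724287 was also assigned to GB55060, outside the group, which had 22 antisense counts in Ovaries, 35 in Eggs and 20 in Testes. By TMM folds between Ovaries and Eggs, 9 of the 81 genes were over 5-fold higher in Ovaries, where 1.78% of the 1121 genes tested were. The rule used these counts, so nothing is read from that count. At the other end, among genes with at least 100 Ovaries counts, GB54406, GB54012 and GB41578 had the lowest ratios to the next tissue, from 1.01 to 1.04.

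**Figure D2:**
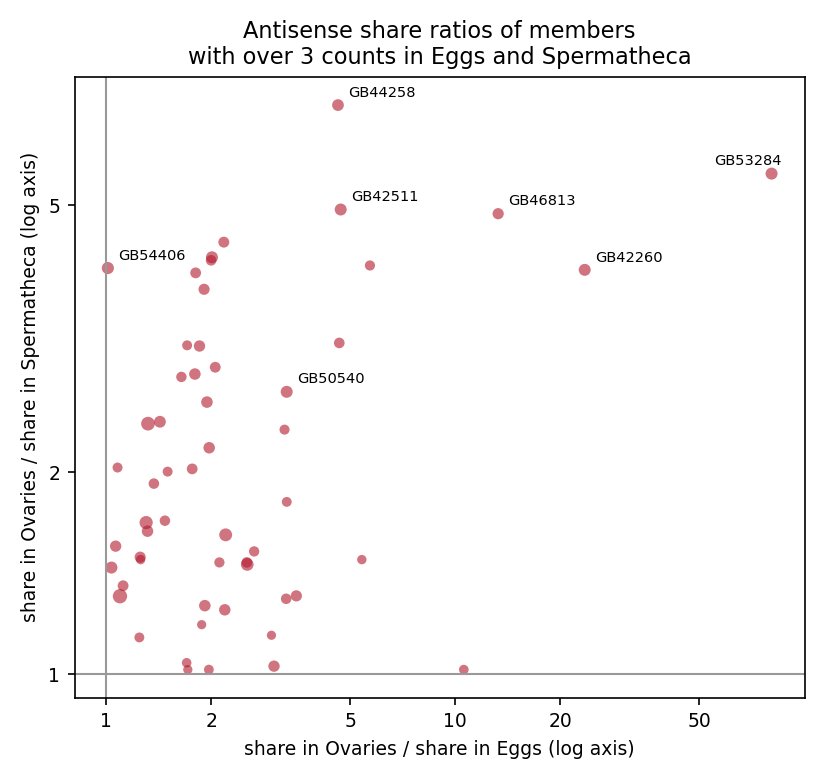
Ratio of each gene's antisense share in Ovaries to its share in Eggs (x axis) and in Spermatheca (y axis), both on log axes, for the 56 genes with more than 3 counts in Eggs and Spermatheca. Point size follows the Ovaries count, and GB53284, GB42260 and GB46813 lie far to the right, at 80.5, 23.5 and 13.3 times their Eggs share.

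Over 5-fold higher antisense counts in Ovaries by TMM were found for all 81 genes against Testes and against Spermatheca, and for 55 against Semen. Over all genes tested the percentages were 17.4% against Testes, 17.8% against Spermatheca and 16.9% against Semen. By column sums the same counts were 25, 3 and 7 genes, for which the percentage over all genes was not computed. The rule used these antisense counts, so nothing is read from any of these numbers. The TMM factors and the column sums placed Ovaries and Testes apart by 3.76 on the log2 scale, Ovaries and Spermatheca by 2.81 and Ovaries and Semen by 4.72. Fold sizes against these tissues depended on that choice, and counts or shares are given instead. The ovary and spermatheca libraries came from the same kind of queens, and in bulk tissue fewer germ cells and less RNA per cell cannot be told apart.

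The sense counts were not used by the rule, but the antisense percentage takes its numerator from values that the rule used, so the comparison with other genes is a description. In Ovaries 48 of the 81 genes (59.3%) had at least 90% of their counts antisense, against 38.5% of the 265 other genes with at least 20 antisense counts there. The median antisense percentage was 94.8% in the group and 82.4% in the other genes. Sense counts were few in most of the genes, with a median of 11 in Ovaries, and 13 genes had none.

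A minority of 13 genes had more sense than antisense counts in Ovaries. These 13 held 96.3% of the sense counts of the whole group. GB50868 (LOC726424), on GroupUn119, had 33305 sense counts in Ovaries, 36981 in Eggs, 69 in Testes, 4 in Semen and 3633 in Spermatheca, against 215 antisense counts in Ovaries. GB54564 (LOC102654783), on GroupUn228, had 24108 sense counts in Ovaries, 7155 in Eggs, 1240 in Spermatheca and 0 in Testes and Semen. Its antisense counts in Ovaries were 24, or 0.0995% of the total (0.0668 to 0.148%). GB46156 (LOC100577795), on GroupUn286, had 17305 sense counts in Ovaries, 18412 in Eggs, 2101 in Spermatheca, 7 in Testes and 1 in Semen, and 655 antisense counts in Ovaries. These 3 genes were high on the sense strand in the queen tissues and eggs and low in the drone tissues. GB51029 had both strands in number, with 7957 sense and 4441 antisense counts in Ovaries, so that 35.8% were antisense (35.0 to 36.7%). In Eggs 34.8% of its counts were antisense and in Spermatheca 41.7%.

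**Figure D3:**
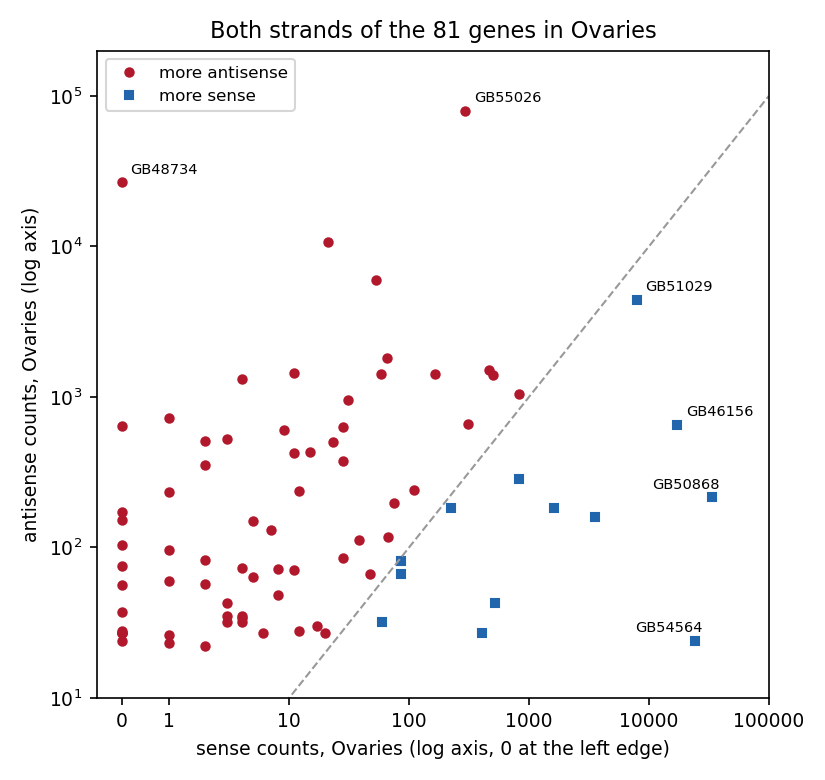
Antisense counts (y axis) against sense counts (x axis) in Ovaries for the 81 genes, both on log axes, with 0 sense counts drawn at the left edge and the dashed line marking equal counts. Red points are the 68 genes with more antisense counts and blue squares the 13 with more sense counts, among them GB50868 with 33305 sense and 215 antisense.

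The sense counts of the group made up 2.87% of all sense gene counts in Ovaries, 1.47% in Eggs, 0.508% in Testes, 0.133% in Semen and 1.09% in Spermatheca. GB50868, GB54564 and GB46156 held 79.9% of the Ovaries sense counts of the group. Without these 3 genes the shares were 0.575% in Ovaries, 0.327% in Eggs, 0.495% in Testes, 0.129% in Semen and 0.287% in Spermatheca, so that Ovaries and Testes were close.

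In TMM folds of sense counts, 38 genes were over 5-fold higher in Ovaries than in Spermatheca (9.72% of all genes tested), of 51 genes with at least 5 counts in either tissue. Against Testes 28 of 58 were higher (10.4% of all) and against Semen 26 of 50 (9.08% of all). Against Eggs 1 of 49 was higher (1.50% of all). The median log2 fold was 2.97 against Spermatheca, 2.05 against Testes, 2.39 against Semen and 0.36 against Eggs, where over all genes tested it was 0.04, -0.17, -0.10 and -0.02, with counts under 3 set to 3. The remaining genes of the 81 had too few sense counts for a fold, and a gene with counts in Ovaries alone enters the test because of them. By column sums the direction turned against Testes and Semen. The median log2 fold of the genes was then -1.06 against Testes, -1.08 against Semen, 0.08 against Spermatheca and 0.80 against Eggs, where over all genes tested it was -3.28, -3.58, -2.85 and 0.42. Under that scaling 4 genes were higher than in Spermatheca (0.414% of all), 10 than in Testes (1.59%) and 9 than in Semen (1.80%). Each of these genes was among the TMM calls. GB53284 and GB54564 were higher than in all 3 of these tissues under both scalings. GB54000 was called against Testes and Semen under both, and GB48920 against Testes and Spermatheca. The Ovaries sense counts of GB54000 and GB48920 were 498 and 109. These may hold the same reads as the antisense counts of the overlapping genes GB54012 and GB48921, which the rule used. Calls for GB54000 and GB48920 are therefore not independent of the rule. The 1 gene higher than in Eggs was GB43475 (LOC724736), with 75 sense counts in Ovaries and 18 in Eggs.

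How many genes were lower in Ovaries on the sense strand depended on the scaling. Against Testes they were 4 by TMM (6.57% of all genes tested were lower), GB48476, GB51920, GB48289 and GB52267. By column sums they were 18, these 4 included, where 68.4% of all genes tested were lower. Lower calls by column sums were 5 against Semen (46.0% of all genes tested were lower), 5 against Spermatheca (69.1%) and 0 against Eggs (0.392%). GB51920 (LOC100577932) had 9 sense counts in Ovaries and 210 in Testes. GB48476 (LOC100578990) had 1 and 125, and GB48289 had 12 and 195. By TMM 1 gene was lower against Eggs (0.668% of all), GB43425, with 20 sense counts in Ovaries and 134 in Eggs, and against Semen 1 gene (10.5% of all), GB54012, with 2 and 8. No gene was lower than in Spermatheca by TMM (2.72% of all).

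Some genes had mostly antisense counts in Ovaries and mostly sense counts in Testes. This held for 9 of the 24 genes with at least 20 counts in Testes (37.5%), against 21.4% of the 192 other genes with that count. The rule asked for a larger antisense share in Ovaries than in Testes, which itself favours this pattern, so the difference between these percentages is no result about the group. In GB48097 99.1% of the counts were antisense in Ovaries (98.9 to 99.3%) and 22.2% in Testes (16.8 to 28.7%, 41 antisense and 144 sense counts). In GB51920 the values were 98.5% and 9.87% (6.67 to 14.4%). In GB52266 (LOC408618) they were 93.1% and 7.55% (2.97 to 17.9%), and in GB48476 98.4% and 0.794% (0.140 to 4.36%). Only in GB45988 did the intervals approach each other, at 55.6% (53.4 to 57.9%) and 45.3% (37.0 to 53.9%). The intervals did not overlap in the other 8 genes.

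**Figure D4:**
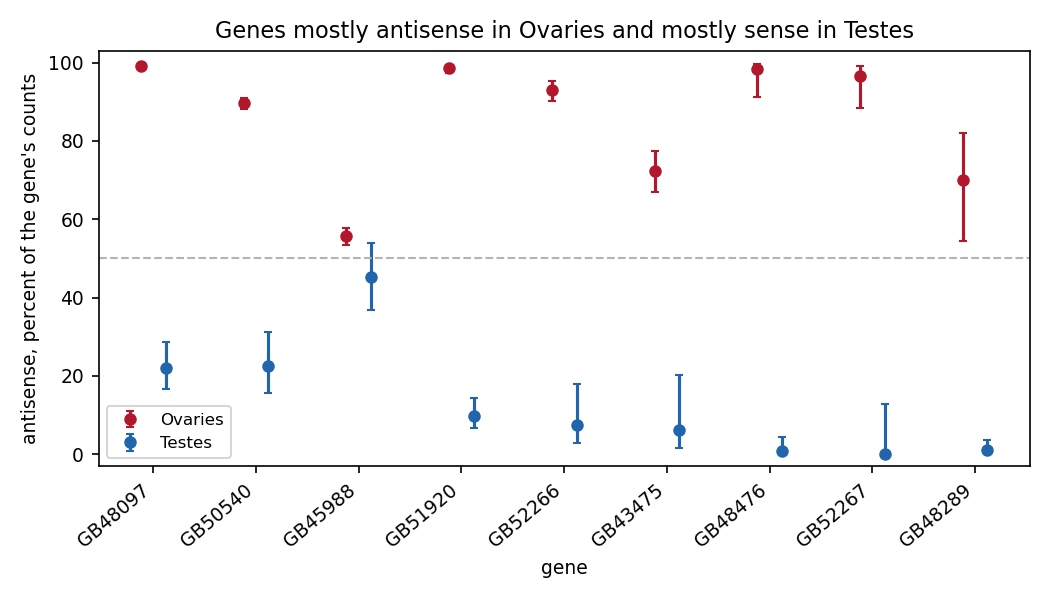
Antisense percentage of each gene's own counts in Ovaries (red) and Testes (blue) for the 9 genes that were mostly antisense in Ovaries and mostly sense in Testes, with 95% Wilson intervals as bars and a dashed line at 50%. The intervals overlap only in GB45988.

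Between Ovaries and Eggs the strand composition was close in most genes. Of 69 genes with at least 20 counts in Eggs, 55 lay within 10 percentage points of their Ovaries value, 9 were over 10 points higher in Ovaries and 5 over 10 points lower. In Spermatheca 25 of 40 genes lay within 10 points and 12 were over 10 points higher in Ovaries. GB43425 had 27 antisense and 20 sense counts in Ovaries, but 14 and 134 in Eggs.

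The genes lay on the chromosomes and on unplaced scaffolds. Unplaced scaffolds carried 27 of the 81 (33.3%), against 20.8% of the other genes with at least 20 counts and 13.3% of all genes, and these 27 held 83.7% of the antisense counts of the group in Ovaries. Chromosome 12 carried 8 genes and chromosome 1 carried 7. The median gene length, introns included, was 12496 bases, against 24703 in the other genes and 2649 in all genes. Annotations under 1 kb numbered 12, and 8 genes were over 100 kb. Counts per kb in Ovaries thus ranged widely, from 0.508 to 162745, the last in GB48734.

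Within 50 kb of each other lay 3 pairs of the genes. GB43475 and GB43425 were neighbours on chromosome 2, with 197 and 27 antisense counts in Ovaries. GB48920 and GB48921 overlapped on chromosome 12, with 240 and 85, and the element ms29404 of 534 bases overlapped both. That element had 166 Ovaries counts on the strand antisense to GB48920 and 92 on the strand antisense to GB48921. GB54012 and GB54000 overlapped on chromosome 9 on opposite strands. The 510 antisense counts of GB54012 came close to the 498 sense counts of GB54000, so that these counts may hold the same reads. GB52153 (353 counts) and GB48211 (153 counts) likewise matched the sense counts of an overlapping gene on the other strand, which were 355 in GB52210 and 153 in GB48198.

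Most of the genes held TEs. At least 1 base of an annotated element lay in 66 of the 81 (81.5%), against 90.2% of the other genes and 31.7% of all genes. Elements covered at least 10% of the gene in 34 (42.0%), against 44.2% and 13.0%. The group therefore resembled other genes with antisense counts in the presence of elements.

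In 29 of the 81 genes (35.8%) the Ovaries antisense count was matched, within 90 to 110%, by the count of 1 element. That element overlapped the gene and was counted on the same strand over its whole length. In some genes it reached past the gene, as in GB52018 and GB48921, and GB41584 lay within its element. Such a match was found in 24 of the 265 other genes (9.06%). Gene and element counts on the same bases are likely to hold the same reads, so the match adds no evidence of its own. It places the reads within the gene only where the element lies inside it. In GB42260, a gene of 40758 bases, all 1324 Ovaries counts were matched by the element ms32474 of 730 bases. In Eggs both gene and element had 87 counts, and in Spermatheca both had 56. In GB42511 1417 of 1425 counts were matched by ms43435 of 937 bases, and in GB54000 1403 of 1407 by ms21982 of 5229 bases. In GB47928 (Apime-ASTA), which encodes the precursor of the allatostatin A neuropeptides, ms34453 of 562 bases had 645 of 645 counts. GB47928 had 554 antisense counts in Eggs, 39 in Spermatheca, 2 in Testes and 0 in Semen, and 0 sense counts in Ovaries. In GB40219 (LOC100576428) ms28533 had 528 of 528 counts, and in GB55338 ms3419 had 704 of 721. In 25 of the 29 genes the same element also matched the Eggs count, and in Spermatheca it did so in 7 of the 13 genes with at least 10 counts. Together the 29 genes held 8818 antisense counts in Ovaries, or 5.81% of the counts of the group, since none of the 8 most abundant genes was among them. The 24 other genes with such a match held more, at 19.3% of the antisense counts of the 265 other genes.

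**Figure D5:**
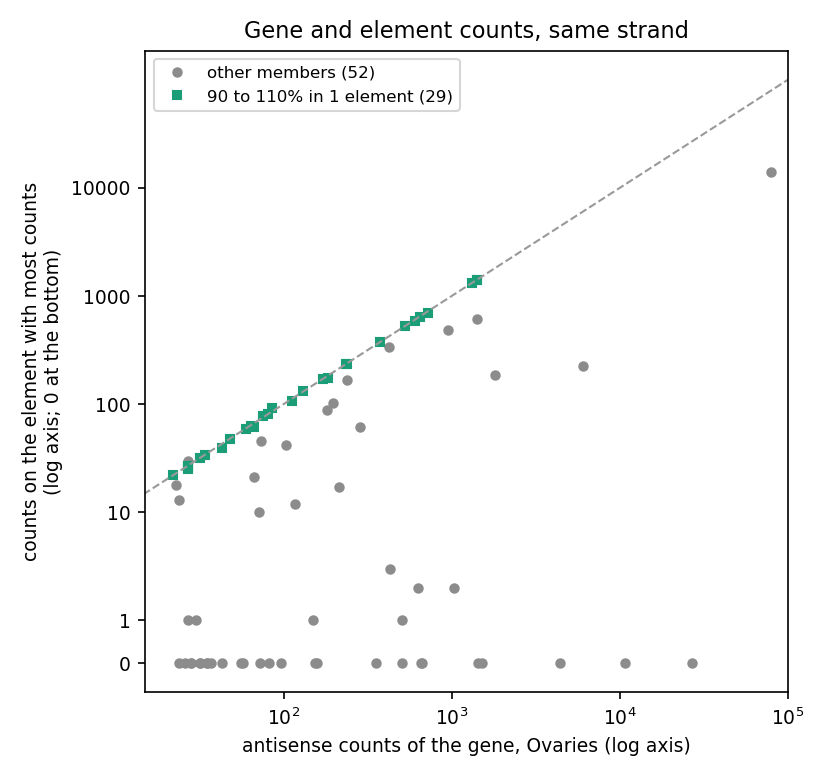
Ovaries counts on the element with most counts among those overlapping each gene, on the strand antisense to the gene (y axis, 0 drawn at the bottom), against the gene's antisense count (x axis), both on log axes. The 29 genes in green lie on or close to the dashed line of equal counts. The other 52 genes are grey and lie below it, except GB49218 with 30 element and 27 gene counts, and include GB48734, with 26853 counts and no element.

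The 29 matching elements ran from 91 to 5229 bases in length. Of the 29, 19 were annotated as LARD (large retrotransposon derivatives, non-coding remains of long terminal repeat elements), 4 as TRIM (terminal-repeat retrotransposons in miniature) and 4 as DTX (DNA transposons with terminal inverted repeats). Their median length was 685 bases, and 21 of 29 were between 500 and 800 bases long. Among the LARDs this was 15 of 19 (78.9%), against 7.81% of all 16221 LARD entries and 28.5% of the 639 LARD entries with at least 20 Ovaries counts. The window of 500 to 800 bases was not planned and lies around the median of these same elements, so this contrast is a description only. The 24 matching elements of the other genes had a median length of 644.5 bases. Of those 24, 12 were LARDs and 8 were between 500 and 800 bases long. The reads were antisense to the element in 17 genes and sense to it in 12, so that antisense to the gene did not mean antisense to the element. The match also says nothing on how reads that map to several copies were placed, which is not given in the sources used here.

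The other 52 genes were mixed. Several elements together accounted for the count in 3 genes, among them GB44258, where the leading element ms16677 of 148 bases had 483 of 957 counts. Elements accounted for part of the count in 14 genes. In GB55026 44 elements had 67.9% of its count, the largest of them (ms45225, a DTX of 1070 bases) 14022 of 79752. In 31 genes neither elements at a single locus nor an opposite gene accounted for the count. Of these, GB41578, GB46989, GB49317 and GB46085 were covered fully by elements listed at several loci, which were not counted. GB48734, GB42002 and GB51029 held no element, and the 7 elements in GB53284 had no counts on that strand. GB41578 and GB46989, both 321 bases long and both assigned to LOC107965922, may share reads. Their antisense counts in Ovaries, Eggs, Testes and Spermatheca were 1439, 2143, 67 and 169 in the first and 504, 730, 24 and 55 in the second, which are close to 1 ratio.

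Overlap with the piRNA clusters that the study listed was found for 24 of the 81 genes (29.6%), against 10.2% of the other genes and 0.993% of all genes. The clusters were called from the same reads and are not independent of the counts. These 24 genes held 90.9% of the antisense counts of the group in Ovaries. Genes in listed clusters held 58.7% of such counts among the other genes and 95.2% over all genes. Where the cluster was listed on the strand opposite to the gene, in 15 genes, between 68.4% and 100% of the gene's counts were antisense, among them GB55026, GB48734 and GB48097. Where it was listed on the strand of the gene, in 5 genes, between 0.0995% and 44.7% were antisense, as in GB54564, GB50868 and GB46156. In 4 genes, GB51029 among them, the listed cluster was not on a single strand.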

How the data were processed

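The authors mapped the small RNA reads to Amel 4.5 (the submitters' notes name Bowtie 1.2.3), removed other known RNAs and deposited raw counts of reads of 26 to 31 bases over whole genes, introns included, and over TEs, made with featureCounts. Lengths (other) in bases were deposited beside them. Each of 4 tables has 1 pooled column per tissue. How libraries were merged, and how reads with several positions were counted, is not given in the sources used here. Other per-sample columns numbered 0.

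The members and lists were chosen with earlier results of these data known. Shares, Wilson 95% intervals and overlaps were computed with numpy 2.4.6, pandas 2.3.3 and SciPy 1.17.1 under Python 3.11.15. Folds used the TMM factors of edgeR 4.0.16 in R 4.3.3 in genes where either tissue had 5 counts or more, and a fold over 5 was called. Counts under 3 were set to 3 and give bounds, called only in their own direction. The test planned for replicates (edgeR's quasi-likelihood test) could not be run. Alternatives were column sums, DESeq2 1.42.0 size factors, unscaled counts, no minimum and a 2-fold limit. On simulated data the fold step recovered 1165 of 1168 10-fold changes (8 comparisons, 25587 genes in all) and called 10 unchanged genes. Both simulated columns had the Ovaries proportions and the same depth, unlike the real tissues. The simulation therefore cannot say which scaling is right for the real pairs.

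Elements were used when listed at 1 locus within 50 kb (34449 of 34760). Named genes are the 12 with most Ovaries antisense counts, 3 each with the highest and lowest ratio to the next tissue among those with at least 100 counts, the 3 with most Ovaries sense counts, and those at the limits of the rule or within 50 kb of each other. Others, and the 90 to 110% match, were chosen after the values were seen. Symbols matched for 50 genes through RefSeq IDs (Amel_HAv3.1, names only). Some of these IDs were also assigned to annotations outside the group with other counts, so the values belong to the GB annotation and not to the symbol. No gene matched the lists of receptors, channels, kinases, zinc fingers, transposon-derived proteins or the piRNA pathway, which need gene descriptions.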

Additional observations from a re-analysis of the deposited data

How the results depend on the processing

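No paired analysis was possible because each table holds 1 pooled column per tissue, and leaving out replicates could not be run for the same reason. The rule gave 150 genes with TMM factors over the 5 columns (62 shared with the 81), 150 with DESeq2 size factors (62 shared), 138 with unscaled counts (60 shared), 70 without the 5 genes that fill the columns (65 shared), 150 with no minimum count (81 shared) and 43 with a minimum of 100. Setting genes aside after ranking gave the same 81. A value of 150 is the rule's upper limit, which keeps the genes with most Ovaries counts. With TMM factors 75 of the 81 stayed highest in Ovaries, so that some were lost to this limit. The cause of the differences was otherwise not tested.

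By column sums, sense calls higher in Ovaries numbered 4 against Eggs, 10 against Testes, 9 against Semen and 4 against Spermatheca, and lower calls 0, 18, 5 and 5. Of all genes tested in that order of tissues, 4.08%, 1.59%, 1.80% and 0.414% were called higher. Lower calls were 0.392%, 68.4%, 46.0% and 69.1% of all genes tested. Unscaled, 0 genes were higher than in Eggs and 25 higher than in Spermatheca, and 0 were lower than in Semen and 1 than in Spermatheca. At a 2-fold limit 12 genes were higher than in Eggs, and lower calls numbered 4 against Eggs, 8 against Testes, 2 against Semen and 1 against Spermatheca. With no minimum count 0 were lower than in Semen. Antisense calls higher in Ovaries by column sums, from counts that the rule used, were 25 against Testes, 7 against Semen and 3 against Spermatheca. Elements covering at least 10% of the gene were found in 34 genes instead of 66. The other 46 comparisons with a changed setting stayed within 1.5 times the reported count, those with DESeq2 size factors of each pair among them.

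The following were chosen after seeing the data. Without the 3 leading genes the shares of antisense counts were 1.05% in Ovaries, 0.490% in Eggs, 0.133% in Testes, 0.0430% in Semen and 0.509% in Spermatheca. With the 30 genes set aside left out of the denominator they were 31.7%, 21.4%, 5.52%, 0.721% and 18.6%. Without the 3 genes with most sense counts the shares of sense counts were 0.575% in Ovaries, 0.327% in Eggs and 0.287% in Spermatheca. A match within 5% or within 20% gave 25 or 31 genes with 1 element. Depth limited Semen most. With 0 counts its share can still reach 0.00922%. The Ovaries share of 54 of the 81 genes was below that, so that a lower share in Semen was not detectable for them at this depth.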
